A study of Mus musculus with 2 samples.

Results

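Mir139 and Mir149 are mouse miRNA genes that lie in introns of protein-coding genes, Mir139 in Pde2a and Mir149 in Gpc1. They were taken by name from the 2202 miRNA genes of the count tables, and were chosen by their mean level, as 2 of the 15 genes with the highest values, so their levels and ranks are given as a description and not as a test. The libraries were 2 small RNA libraries of heart tissue from male mice of the hybrid strain B6CASTF1/J aged 18 to 20 months, called biological replicates 2 and 1 of 1 group. Each has its own biosample, but the labels give both a single donor record, and their spread may therefore be technical. With 1 group there is no condition to compare, and the question the data answer is how abundant these miRNAs were in the heart and how closely the libraries matched at them.

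MicroRNAs are cut from hairpin precursors, loaded as short single strands into Argonaute proteins and pair with messenger RNAs mainly through their seed, bases 2 to 8. An intronic miRNA is usually transcribed with its host gene and cut out of the host's intron, although some have promoters of their own. Pde2a encodes a phosphodiesterase that breaks down cyclic AMP and is stimulated by cyclic GMP, and it acts in heart muscle cells among others. Gpc1 encodes glypican 1, a heparan sulfate proteoglycan held on the cell surface that binds growth factors. From human tumour cells, miR-139-5p is known as a repressor of growth signalling and miR-149-5p as a regulator of migration and inflammation.

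The mature sequences are shown because the seed decides which messages a miRNA can pair with, and they show that the 2 miRNAs share no seed. They are those of RefSeq on the build GRCm38.p6, in which both genes were found, written 5′ to 3′ with the seed in capitals.
mmu-miR-139-5p: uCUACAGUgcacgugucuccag
mmu-miR-139-3p: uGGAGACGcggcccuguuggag
mmu-miR-149-5p: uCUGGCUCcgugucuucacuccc
mmu-miR-149-3p: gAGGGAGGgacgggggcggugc

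The hairpins show where these arms lie, with the mature arms in capitals and the flanks and loop in lower case.
Mir139 hairpin, chr7:101475376-101475443, plus strand: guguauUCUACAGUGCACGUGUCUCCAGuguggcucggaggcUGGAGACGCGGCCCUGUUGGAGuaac
Mir149 hairpin, chr1:92850378-92850443, plus strand: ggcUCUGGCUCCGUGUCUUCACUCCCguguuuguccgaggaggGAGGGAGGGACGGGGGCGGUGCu

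The count tables give 1 value per hairpin, so reads of the 5p and 3p arms cannot be told apart here. No other mouse miRNA in the RefSeq table has the seed of miR-139-5p, miR-139-3p or miR-149-5p. The seed of miR-149-3p is carried by 3 other mature miRNAs, which are shown because their genes could add to the same set of seed matches.
mmu-miR-7016-5p: cAGGGAGGggagcgagaguag
mmu-miR-1943-5p: aAGGGAGGaucugggcaccugga
mmu-miR-6967-5p: cAGGGAGGgauaaagaccagu

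Few reads were counted for their genes. Mir1943 had 35 reads in replicate 2 and 21 in replicate 1, and Mir7016 had 3 and 2. Both genes of miR-6967, Gm27775 and Gm27740, are listed at 0 in each library, but their mature sequences are identical, so reads that fit both places entered neither count and the 0 sets no limit on their level. Over bases 2 to 7 alone, miR-149-5p matched 4 other miRNAs, of which Mir7688 had 101 reads in replicate 2 and 39 in replicate 1, Mir3064 had 52 and 40, and Mir7652 and Mir3085 had 0 in each library. So did Mir6397, the 1 gene that matched miR-139-3p over these bases. Mir1943, Mir7016, Mir7688 and Mir3064 were thus far below Mir139 and Mir149, whose reads are given next.

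Of the 19574873 reads of replicate 2, 27.0% (5284446 reads) fell in miRNA genes, as did 32.1% of the 9468820 reads of replicate 1 (3037063 reads). Reads that mapped to more than 1 place entered no gene's count and came to 1.20 times the counted reads in replicate 2 and 1.27 times in replicate 1. At least 10 reads in each library, the limit used for calling a gene detected, were found for 321 of the 2202 genes. The cardiomyocyte miRNAs Mir208a, Mir208b and Mir499 were all detected, with summed levels of 14758 CPM (reads per 1000000 reads in miRNA genes) in replicate 2 and 10793 CPM in replicate 1. Mir208a made up most of this difference, at 9154 CPM in replicate 2 and 5184 CPM in replicate 1. Mir208b was at 116 and 50.0 CPM, while Mir499 was nearly equal at 5487 and 5559 CPM. Of 7 miRNA genes known from neurons, Mir137 alone was detected. The other 6, the Mir124a and Mir9 genes, each share 22 consecutive bases with another hairpin, and since multi-mapped reads were not counted their low counts do not show that these miRNAs were absent.

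Mir139 (ENSMUSG00000065446.1, chromosome 7, 101475376 to 101475443, plus strand, GRCm38) had 214783 reads in replicate 2 and 108758 in replicate 1. Scaled to the reads in miRNA genes, its level was 40644 CPM in replicate 2 and 35810 CPM in replicate 1, with a mean of 38227 ± 3418 CPM (SD, n = 2). In replicate 2 it took 4.06% of the miRNA reads, with a 95% Wilson interval of 4.05 to 4.08, and in replicate 1 it took 3.58%, with 3.56 to 3.60. Its level was thus higher in replicate 2, and the intervals of the libraries did not overlap. These intervals cover counting error only.

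Mir149 (ENSMUSG00000065470.1, chromosome 1, 92850378 to 92850443, plus strand, GRCm38) had 146356 reads in replicate 2 and 65579 in replicate 1. This was 27696 CPM in replicate 2 and 21593 CPM in replicate 1, with a mean of 24644 ± 4315 CPM (SD, n = 2). In replicate 2 its share of the miRNA reads was 2.77%, with a 95% Wilson interval of 2.76 to 2.78, and in replicate 1 it was 2.16%, with 2.14 to 2.18. As for Mir139, replicate 2 was the higher library. Together the 2 genes took 6.83% of the miRNA reads in replicate 2 and 5.74% in replicate 1, a mean of 6.29% ± 0.773 (SD, n = 2).

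In the order of mean levels, Mir139 stood at rank 10 and Mir149 at rank 13 of all genes. Mir139 was at rank 7 in replicate 2 and rank 11 in replicate 1, while Mir149 was at rank 13 in both libraries. The limit of rank 15 fell between Mir29a, inside it at 16912 ± 3900 CPM, and Mir30d, outside it at rank 16 and 15038 CPM. The ranks come from counted reads, and none of the 15 hairpins has 22 consecutive bases in common with a different one. The reads left out because they mapped to more than 1 place could raise other genes in this order, which the counts cannot show.

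Several neighbours in that order did not differ from Mir139 or Mir149 beyond the spread between libraries. Mir143, a smooth muscle miRNA at rank 9, had 41182 ± 3596 CPM (SD, n = 2), and Mir139 was 1.05 times as high in replicate 2 but 0.819 times as high in replicate 1. Mir99a, at rank 11, had 36867 ± 7336 CPM, with Mir139 at 1.28 times its reads in replicate 2 and 0.852 times in replicate 1. The order of Mir139 and Mir23b (rank 8, 46906 ± 12986 CPM) likewise turned between the libraries. Mir139 was above Mir26b, a miRNA in an intron of the phosphatase gene Ctdsp1 (rank 12, 26301 ± 7195 CPM), in both libraries, 1.92-fold in replicate 2 and 1.14-fold in replicate 1.

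Around Mir149, the order against Mir26b and Mir22 turned between the libraries. Mir149 had 1.31 times the reads of Mir26b in replicate 2 and 0.688 times in replicate 1. Against Mir22, a miRNA studied for its part in cardiac hypertrophy (rank 14, 24219 ± 14982 CPM), Mir149 had 0.796 times the reads in replicate 2 and 1.58 times in replicate 1. Mir149 was above Mir29a, a repressor of collagen messages, in both libraries, 1.41-fold in replicate 2 and 1.53-fold in replicate 1, although the SD ranges of their means overlapped. It was below Mir99a in both.

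**Figure D1:**
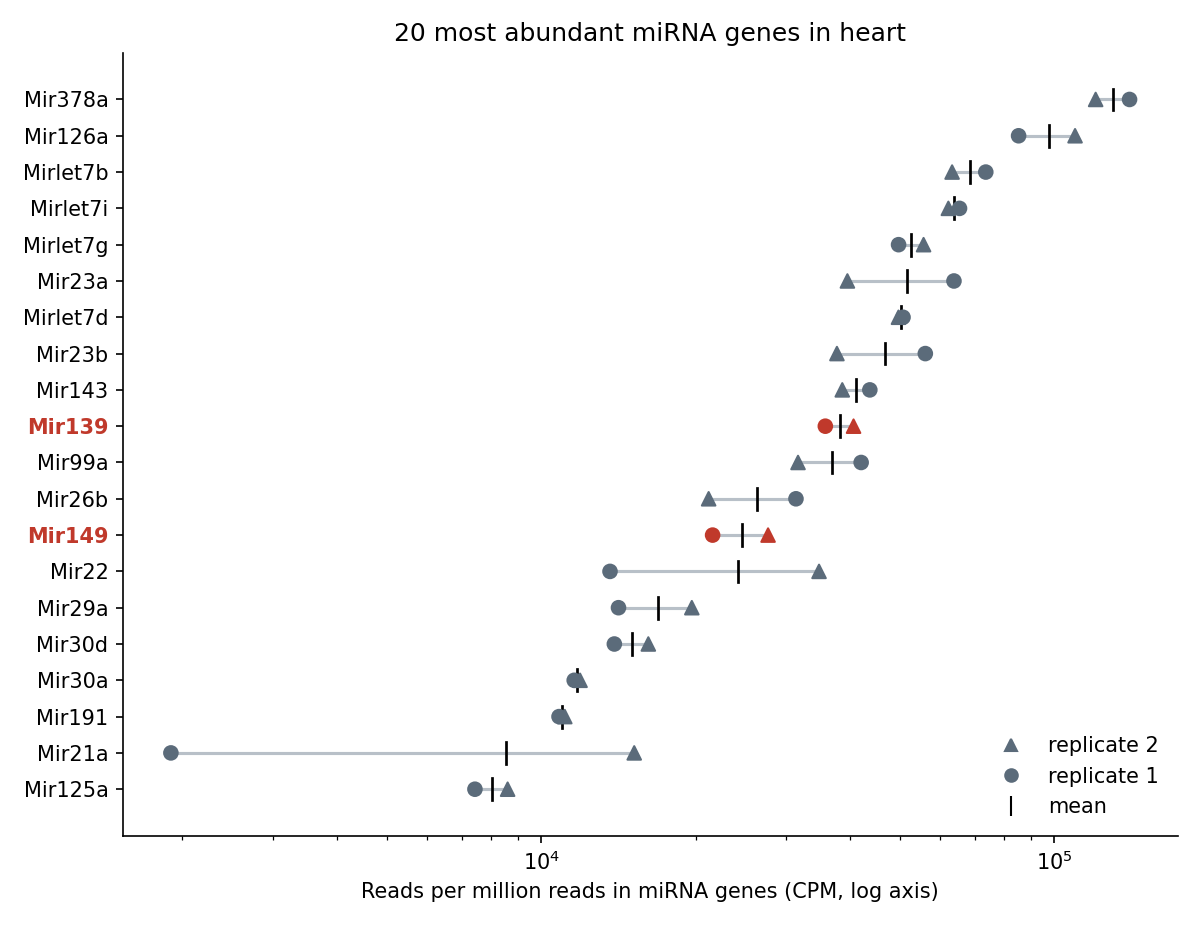
Level of the 20 miRNA genes with the highest mean CPM, on a log axis of CPM, with a triangle for replicate 2, a circle for replicate 1 and a vertical line for the mean; Mir139 and Mir149 are red. Mir139 lies at 40644 CPM in replicate 2 and 35810 CPM in replicate 1, and Mir149 at 27696 and 21593 CPM. The values of Mir139 lie between those of Mir99a, and those of Mir149 overlap with those of Mir26b.

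Mir139 was the more abundant of the pair in both libraries. It had 1.47 times the reads of Mir149 in replicate 2 (95% Clopper-Pearson interval 1.46 to 1.48) and 1.66 times in replicate 1 (1.64 to 1.67), a mean log2 ratio of 0.64 ± 0.12 (SD, n = 2). This ratio needs no scaling between libraries. It differed between the libraries beyond counting error (two-sided Fisher's exact test on the reads, p = 7.89e-93), a test that compares these 2 libraries and not conditions.

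Against miRNAs in introns of cardiac myosin genes, both genes were higher in each library. Mir139 had 4.44 times the reads of Mir208a, which lies in the alpha myosin gene Myh6, in replicate 2 and 6.91 times in replicate 1. It had 7.41 times the reads of Mir499, which lies in Myh7b, in replicate 2 and 6.44 times in replicate 1. Mir149 had 3.03 times the reads of Mir208a in replicate 2 and 4.17 times in replicate 1, and against Mir499 the values were 5.05 and 3.88. In whole tissue, the number of cells that make a miRNA and its amount per cell cannot be told apart, so these ratios do not say in which cells Mir139 and Mir149 were made.

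The libraries differed at both genes by more than counting error. For Mir139 the level in replicate 2 was 1.13 times that in replicate 1, a log2 ratio of 0.18 (95% Clopper-Pearson interval 0.17 to 0.19). For Mir149 it was 1.28 times, a log2 ratio of 0.36 (0.35 to 0.37). In an exact two-sided binomial test given the library totals, adjusted by Benjamini-Hochberg over all 424 genes whose reads in the 2 libraries summed to at least 10, the log10 of the adjusted p was -255.2 for Mir139 and -628.0 for Mir149. Both genes were thus called higher in replicate 2, as were 131 of the 424 genes tested (30.9%), while 52.8% were called in either direction. All 15 genes within the rank limit were called, with 6 in favour of replicate 2 and 9 in favour of replicate 1.

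With the spread between the libraries taken into account, neither gene stood apart. The biological coefficient of variation over the detected genes, the square root of the common dispersion estimated by edgeR from this pair, was 40.5%. The SD of the 2 libraries was 8.94% of the mean for Mir139 and 17.5% for Mir149. In the exact test of edgeR with that dispersion the adjusted p was 1 for both genes, with unadjusted p values of 0.842 for Mir139 and 0.683 for Mir149, while 12 of the 424 genes (2.83%) were called. That dispersion comes from the same 2 libraries, so the test says only how these genes lie among the others of the pair.

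Among the 321 detected genes the median absolute log2 ratio was 0.38. Mir139 was closer between the libraries than that median, with 79 of the 321 genes at a smaller absolute ratio. Mir149 lay near it, with 154 at a smaller ratio. Within the 15 most abundant genes, 10 differed more than Mir139 and 7 more than Mir149. The ratios of the 15 ran between -0.69 and 1.35.

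**Figure D2:**
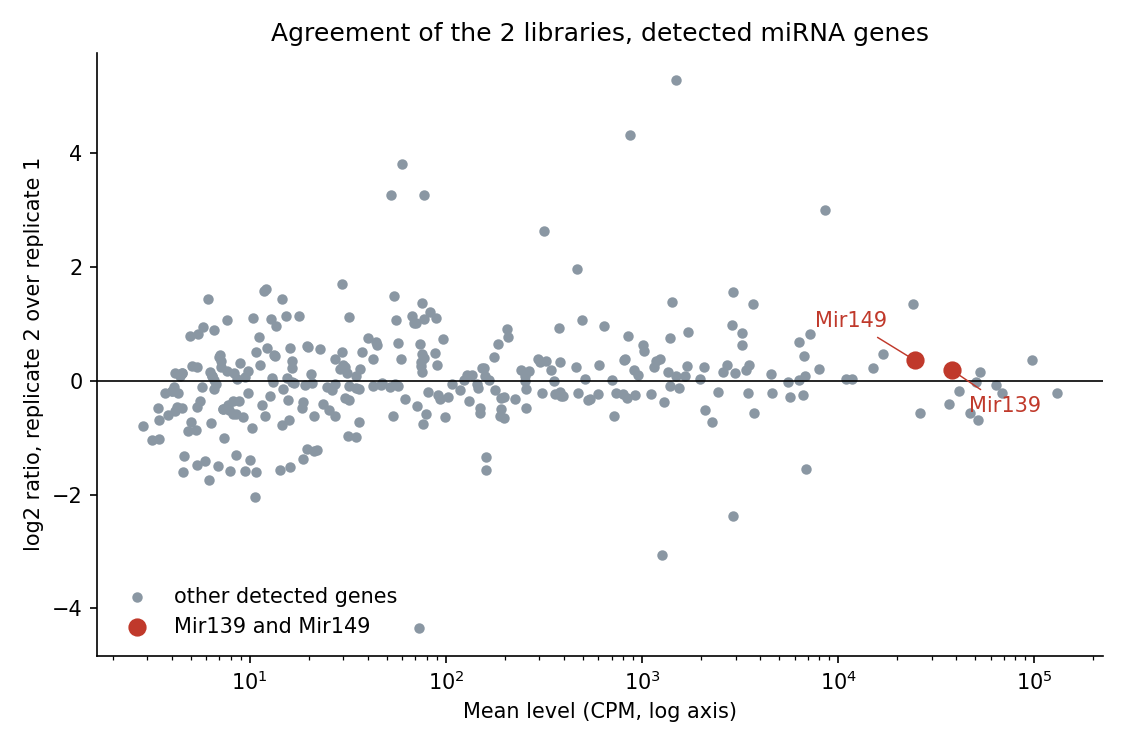
The log2 ratio of replicate 2 over replicate 1 (vertical axis) against the mean level in CPM (log axis) for the 321 detected miRNA genes, 1 point per gene, with Mir139 and Mir149 in red and a line at a ratio of 0. Mir139 lies at 0.18 and Mir149 at 0.36, where the median absolute ratio of the detected genes is 0.38. The detected genes reach from -4.35 to 5.28.

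The summed levels of markers of other cell types also differed between the same libraries. Calls given here are those of the binomial test, which covers counting error only. The summed level of the 3 endothelial miRNAs was 114721 CPM in replicate 2 and 86800 CPM in replicate 1, mostly from Mir126a (109823 and 85244 CPM). That of the 2 smooth muscle miRNAs was 40641 and 45693 CPM. Mir143 (log2 ratio -0.18) was called higher in replicate 1 and Mir145a (0.02) was not called. The 3 erythroid miRNAs summed to 2542 CPM in replicate 2 and 8201 CPM in replicate 1. Mir451a (log2 ratio -2.37) and Mir144 (-3.06) were called higher in replicate 1, and Mir486 (0.35) was called higher in replicate 2. The hairpin of Mir486 shares 22 consecutive bases with another one. Since multi-mapped reads were not counted, its level and ratio may be incomplete. The 4 leukocyte miRNAs summed to 7238 and 6557 CPM. Mir150 (0.13), Mir155 (0.20) and Mir223 (0.22) were called higher in replicate 2, but Mir142 (-0.27) was called higher in replicate 1. For the 7 epithelial miRNAs, 6 of them detected, the sums were 3874 CPM in replicate 2 and 298 CPM in replicate 1. Mir205 (1963 CPM in replicate 2 and 2.30 CPM in replicate 1) and Mir200c (1652 and 82.6 CPM) made up most of the difference. Both were called higher in replicate 2, as were Mir141 (log2 ratio 1.62) and Mir203 (0.43). Mir200b (-0.61) and Mir429 (-0.68) were called higher in replicate 1, and Mir200a was not called. All these lists and the cardiomyocyte list were detected in full but for the epithelial one, and none of their members had 0 reads in both libraries. Their part in the higher levels of Mir139 and Mir149 in replicate 2 was not tested.

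The genes most alike in their ratio between the libraries were sought among the other 66 genes with a mean of at least 1000 CPM. Since there are only 2 libraries, this likeness rests on 1 ratio per gene. Nearest to Mir139 (0.18) were Mir155, a leukocyte miRNA, at 0.20, Mirlet7g at 0.16 and Mir676 at 0.16. Of the other leukocyte miRNAs, Mir223 was at 0.22 and Mir150 at 0.13, but Mir142 was at -0.27. Nearest to Mir149 (0.36) were Mir486, a miRNA of red blood cells and muscle, at 0.35 (the other erythroid miRNAs went the other way), the endothelial Mir126a at 0.37, and Mir17 at 0.39. The other endothelial miRNAs lay far from Mir126a, Mir221 at 1.57 and Mir222 at 2.64. The reads of Mir149 were 0.252 times those of Mir126a in replicate 2 and 0.253 times in replicate 1. These values are close because Mir126a was picked for its like ratio, so they add nothing to it.

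Both hairpins lie in long introns before most exons of their hosts, on the host's strand. Pde2a (ENSMUSG00000110195.1, chromosome 7, 101421691 to 101512827, plus strand) has 12 annotated transcripts, and in 10 of them the hairpin of Mir139 lies in an intron. In all 4 of its protein-coding transcripts this is intron 2, which is 29902 bases long. The hairpin starts 23907 bases after the upstream exon and ends 5927 bases before the downstream one. The 10 transcripts begin between 14432 and 53685 bases upstream of the hairpin. A second protein-coding gene on the same strand, Gm45837 (ENSMUSG00000030653.17, 101410886 to 101512819), spans the same stretch and holds the hairpin in its intron 3, so the annotation gives Mir139 2 overlapping hosts.

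Gpc1 (ENSMUSG00000034220.7, chromosome 1, 92831645 to 92860779, plus strand) has 5 annotated transcripts, of which only Gpc1-201, its protein-coding one, spans Mir149. The hairpin lies in intron 1, which is 21249 bases long, at 18280 bases after exon 1 and 2903 bases before exon 2. No annotated gene on the opposite strand overlaps either hairpin. The nearest within the host, the antisense gene Gm29480, has its closest base 1607 bases from Mir149. Neither host holds another annotated miRNA gene, so each of the 2 miRNAs stands alone in its intron.

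**Figure D3:**
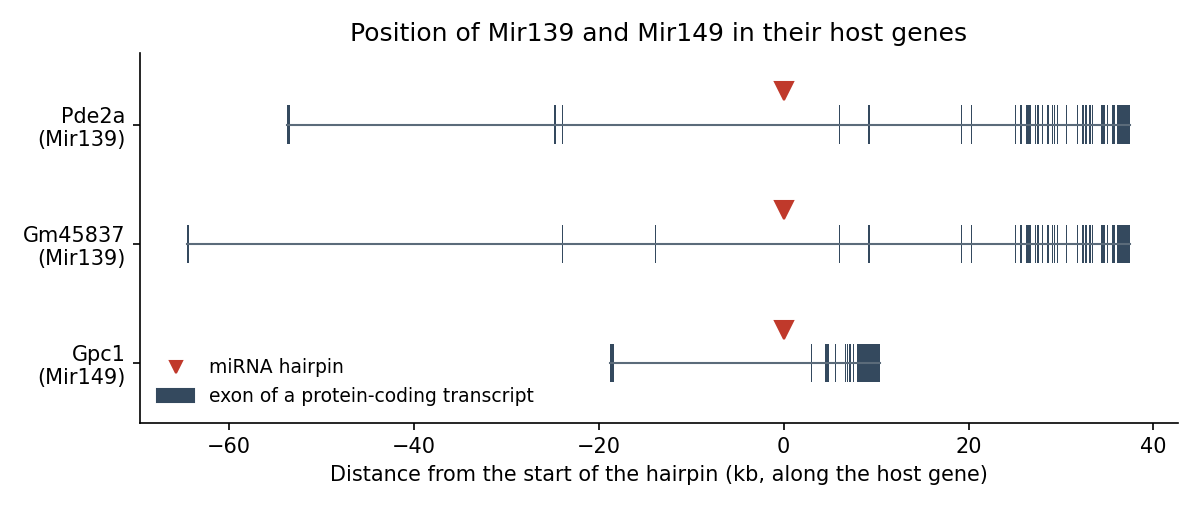
Position of the hairpins (red triangles) in Pde2a and Gm45837 (Mir139) and in Gpc1 (Mir149), as distance in kb from the start of the hairpin along the host, with boxes for exons of protein-coding transcripts. Each hairpin lies in a long intron upstream of most exons, with the next exon 5927 bases downstream of Mir139 and 2903 bases downstream of Mir149.

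Reads of both genes came from the host's strand alone. On the opposite strand 0 reads were counted at Mir139 and at Mir149 in each library, a count that allows up to 3 reads per library. These 3 reads equal 0.568 CPM in replicate 2 and, in the shallower replicate 1, 0.988 CPM. The column for either strand held the same reads as the sense column at both genes.

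Neither hairpin has a near-identical copy among the annotated miRNA hairpins. The longest exact stretch in common with another hairpin on the sense strand was 11 bases for Mir139 and 15 bases for Mir149. Within the mature arms it was 10 bases for miR-139-5p, miR-139-3p and miR-149-5p, and 12 bases for miR-149-3p, the last with Mir92b. Of all 2202 genes 1023 share a stretch of 22 bases with another hairpin, among them 63 of the 321 detected genes. Copies outside annotated miRNA hairpins were not searched.

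Both hairpins are rich in G and C. The 68 bases of the Mir139 hairpin have 58.8% G and C, and the 66 bases of the Mir149 hairpin have 68.2%, against a median of 51.5% over the detected genes. Only 14 of the 321 detected hairpins have a higher share than Mir149, and 66 have a higher share than Mir139. In the arms printed above, miR-149-3p reaches 81.8% and miR-149-5p 60.9%, while miR-139-3p has 68.2% and miR-139-5p 54.5%. Folded with RNAfold, both hairpins form 25 base pairs, with minimum free energies of -35.6 kcal/mol for Mir139 and -36.7 kcal/mol for Mir149. Per base this is -0.52 and -0.56 kcal/mol, against a median of -0.44 over the detected genes, and 61 and 36 of the 321 detected hairpins have a lower value.

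Among intronic miRNA genes, both stood near the top. A gene was counted as intronic when its hairpin lay in an intron of a protein-coding gene on the same strand and overlapped no exon of such a gene, which held for 733 of the 2202 genes, 117 of them detected. These 733 genes took 38.3% of the miRNA reads in replicate 2 and 41.3% in replicate 1. By mean level Mir139 was at rank 4 of them and Mir149 at rank 6, at 506 and 326 times the median of the detected intronic genes (75.6 CPM). Mir139 took 10.6% of the intronic reads in replicate 2 and 8.66% in replicate 1, and Mir149 7.22% and 5.22%.

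By this rule the 5 most abundant intronic genes were Mir378a (Ppargc1b, a coactivator of mitochondrial genes), Mirlet7g (Wdr82), Mir23b (2010111I01Rik), Mir139 and Mir26b (Ctdsp1). Their levels ran from 130358 CPM for Mir378a to 26301 CPM for Mir26b. Mir126a, at 97534 CPM, is known as intronic from general knowledge but did not meet the rule. With exon overlap in some transcripts allowed, Mir139 and Mir149 stood at ranks 5 and 7. Mir139 had 0.337 times the reads of Mir378a in replicate 2 and 0.255 times in replicate 1, and Mir149 had 0.230 and 0.154 times. Below Mir149 the next intronic gene was Mir208a at 7169 ± 2807 CPM (SD, n = 2), which left a gap between the first 6 genes and the others.

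**Figure D4:**
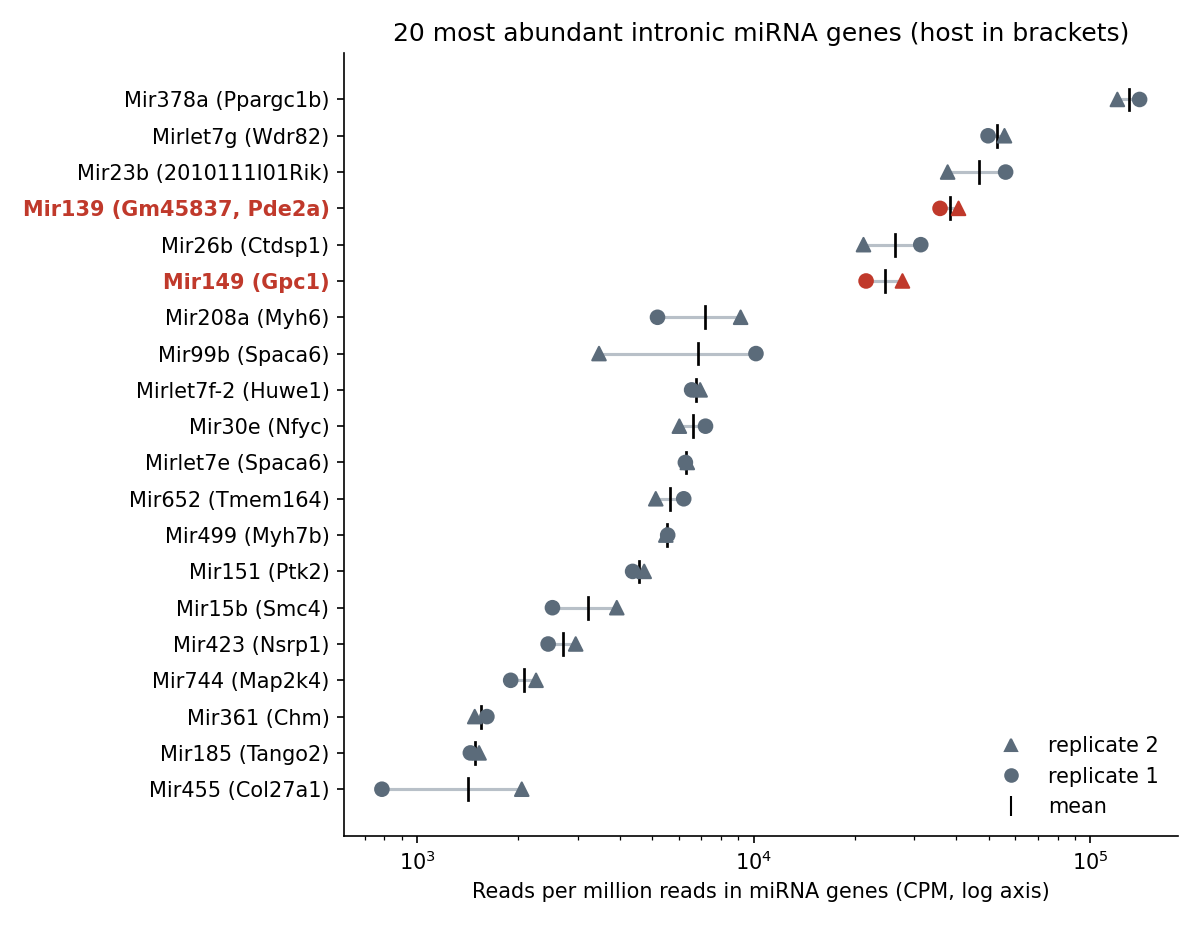
Level of the 20 most abundant intronic miRNA genes in CPM on a log axis, with the host gene in brackets, a triangle for replicate 2, a circle for replicate 1 and a vertical line for the mean; Mir139 and Mir149 are red. Both lie in the upper 6 genes, above Mir208a (Myh6), which has a mean of 7169 CPM.

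A list of 46 intronic miRNAs with hosts known from general knowledge, Mir139 and Mir149 among them, was set beside the class taken from the annotation. All but Mir7a-1 matched a gene by name, the annotation placed 38 of the 45 in the intronic class, and 42 were detected. Of the other 43, 3 had a mean level of counted reads above Mir139 (Mir378a, Mir126a and Mir23b) and these with Mir26b were the 4 above Mir149. However, 12 of the 45 matched genes share 22 consecutive bases with another hairpin, Mir26a-1 and Mir26a-2 among them. Since multi-mapped reads were not counted, the levels of these 12 may be incomplete. The counts cannot show whether any of them stood above Mir139 or Mir149. Between the libraries, 20 of the 44 tested members were called higher in replicate 2, 18 were called higher in replicate 1 and 6 were not called in the binomial test. These are 45.5% and 40.9% of the list, 86.4% in all, against 30.9%, 21.9% and 52.8% of all genes tested. Most of the list was detected, and the share called was 61.1% of the 321 detected genes and 63.2% of the 117 detected intronic genes. For the 15 most abundant genes the share called was 100%. The median log2 ratio of the list was -0.01, against 0.07 over all 424 genes tested.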

How the data were processed

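The authors deposited raw counts of reads for each miRNA gene. Each library has its own table of 2202 genes, 4 summary lines and 3 count columns (either strand, then each strand alone). Per the labels the build was mm10 (GRCm38), and per the deposited text the annotation was GENCODE M21. Which aligner and counter were used, in which versions and after what trimming, is not given in the sources used here. Of the 2 strand columns, the one holding more reads in miRNA genes in each library was taken as sense. Multi-mapped reads enter no gene's count. The summary lines were left out of totals and tests. In replicates 2 and 1, 34.3% and 19.4% of all reads were unmapped, 32.5% and 40.7% mapped to several places and 6.27% and 7.79% lay outside miRNA genes.

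All 2202 gene IDs matched GENCODE, from which names, hosts and hairpins were taken. Counts were scaled to CPM, per 1000000 reads in miRNA genes, and not to length. With 1 group no model of group means was possible, so the main test was an exact binomial test between the libraries. It was tried on simulated counts whose only spread was counting error, which cannot show how it behaves with the spread of this pair. Its p-values cover counting error, not the spread between animals. Alternatives were TMM scaling and the exact test of edgeR 4.0.16, DESeq2 1.42.0 size factors, the column for either strand, other minimums of reads and each library alone. Hairpins were folded with RNAfold 2.7.2; scipy 1.17.1 gave the Fisher test. Named genes were Mir139 and Mir149, genes within 2 ranks of either and at the rank limit, the 3 nearest in ratio per gene, the 5 most abundant intronic genes, sharers of a seed, genes in the hosts and the marker lists; the ratios to Mir208a and Mir499 and the other genes named were chosen with their values seen. The members, lists and rules were chosen with earlier results of these data known.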

Additional observations from a re-analysis of the deposited data

How the results depend on the processing

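Of 45 values under other settings, 32 counted as unchanged. For levels, ranks and the read ratio of the 2 genes, this meant within the SD between libraries. For log2 ratios it meant the same side of the threshold, and for numbers of called genes within a set fold of the main number. With 2 libraries, the level in either alone always lies within that SD of the mean, so these levels could not count as changed. None of the log2 ratios changed direction. With reads mapped to several places added to the denominator, the mean level fell to 17113 CPM for Mir139 and 11042 CPM for Mir149. In the column for either strand it was 51536 CPM for Mir139 and 33224 CPM for Mir149, where Mir378a had 0 reads in each library and Mir126a 38 in replicate 2 and 37 in replicate 1, and Mir149 stood at rank 11. In 1 library alone, Mir139 had a level of 35810 to 40644 CPM and rank 7 to 11, and rank 3 to 4 among intronic genes; Mir149 had 21593 to 27696 CPM and rank 5 to 6 among intronic genes. With exon overlap in some transcripts allowed, 831 genes were intronic and Mir139 and Mir149 stood at ranks 5 and 7 among them. With edgeR's exact test and the common dispersion, the log2 ratios were 0.17 for Mir139 and 0.34 for Mir149, neither past the threshold, and 12 genes were called in place of 224. The binomial calls numbered 184 to 228 under the other settings, but the number of genes tested changed as well. Raising the minimum to 100 summed reads gave 184 calls among 245 genes, and dropping it gave 223 among 735. The column for either strand gave 208 among 399. TMM scaling and DESeq2 size factors gave 228 and 226 among 424, against 224 of 424 in the main setting. The share of genes called thus depended on the minimum chosen. A ratio between the libraries needs both, so none was had without either replicate. No paired analysis was possible because there is 1 group. Depth limits neither gene's counts; the spread rests on 2 libraries.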
